A study of Vitis riparia with 12 samples.

Results

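The data are RNA sequencing profiles of shoot tips of the wild grapevine Vitis riparia (genotype PI588259) that stayed under a long photoperiod of 15 h (LD) throughout. The 3 libraries of day 21 (LD21) were compared with the 3 libraries of day 7 (LD7), which are 6 of the 12 libraries of the series, chosen by their titles. The other 6 libraries come from vines moved to a short photoperiod of 13 h, sampled on the same days (SD21 and SD7), and serve here to show where the change under long days differs. All vines were potted, spur-pruned and 6 years old, had been taken out of cold storage, and had grown for 30 days at 15 h before they were randomized, with the treatments starting 5 days later. Each library came from a tip spanning 4 nodes, pooled over 5 vines of a replicate. Days are counted from the start of the differential photoperiod, and the labels give no separate treatment for the long-day vines.

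The shoot tip of a vine holds the apical meristem, which makes new leaves, tendrils and axillary buds, together with young leaves and elongating internodes. In Vitis riparia, long days keep the tip growing, and shortening days bring growth cessation and bud dormancy. Tissue collected from such a tip at a later day was laid down later. Each day was a single harvest here, so the day and the harvest occasion cannot be told apart. In bulk tissue, fewer cells of a type and less RNA per cell cannot be told apart either.

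Each library listed FPKM, fragments scaled to transcript length and to the mapped fragments of the library, for 29970 gene identifiers. None of these matched the reference gene table, so genes are given by position, no role is given to any of them, and the tissue was not checked against marker genes. Absolute depth is unknown. Depth relative to LD7 replicate 1, read from the whole-read steps of low genes, was 1.02 to 1.21 in the LD21 libraries and 1.00 to 1.27 in the LD7 libraries. The FPKM total was 988569 ± 9714 in LD21 and 1032029 ± 2004 in LD7 (SD, n = 3 each). The LD21 libraries held 20320 to 20524 genes of at least 1 FPKM and the LD7 libraries 20357 to 20485, ranges that overlap. Correlations of log2(FPKM + 1) over tested genes were 0.951 to 0.970 among the LD21 libraries, 0.967 to 0.978 among the LD7 libraries and 0.925 to 0.955 between LD21 and LD7. The median SD of log2(FPKM + 1) among replicates was 0.20 in LD21 and 0.14 in LD7.

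In the growing tips, 2296 genes were higher and 1667 lower at day 21 than at day 7. The test was limma on log2(FPKM + 1) with Benjamini-Hochberg adjustment over 21848 tested genes, and an adjusted p under 0.05 was called. Called genes made up 18.1% of those tested, 10.5% higher and 7.63% lower. Large changes leaned to falls. At least 2-fold rises numbered 357 (1.63%) and at least 2-fold falls 579 (2.65%), and at least 4-fold changes numbered 39 (0.179%) and 92 (0.421%). The LD21 and LD7 libraries did not overlap in 43.0% of tested genes. Genes listed at 0 in every LD7 library and at 5 FPKM or more in every LD21 library numbered 5, and the reverse held for 2. Over all tested genes the median log2 fold change was 0.11.

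The larger side depended on the scaling and on single libraries. Rises made up 57.9% of calls on the deposited values, 45.3% after quantile normalization (1585 higher, 1916 lower) and 37.4% after median-ratio scaling (1185 higher, 1980 lower). The excess of falls among at least 2-fold changes held under each scaling, with 292 against 676 after quantile normalization and 243 against 726 after median-ratio scaling. The counts moved when a library was left out, which also leaves fewer replicates. With each of the 12 libraries left out in turn, the count of calls ran from 1361 to 4369. The count of 3963 calls was 2618, 1606 and 1361 without LD7 replicates 1, 2 and 3, and 1408 without LD21 replicate 2. Of the genes called with all libraries, 554 rises and 825 falls were kept without LD21 replicate 2. Without LD7 replicate 2 these were 722 and 862, and without LD7 replicate 3 they were 579 and 757. Rises stayed the larger side without LD7 replicate 1 (1258 and 1142), LD21 replicate 1 (1272 and 1060) or LD21 replicate 3 (1699 and 1381).

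**Figure D1:**
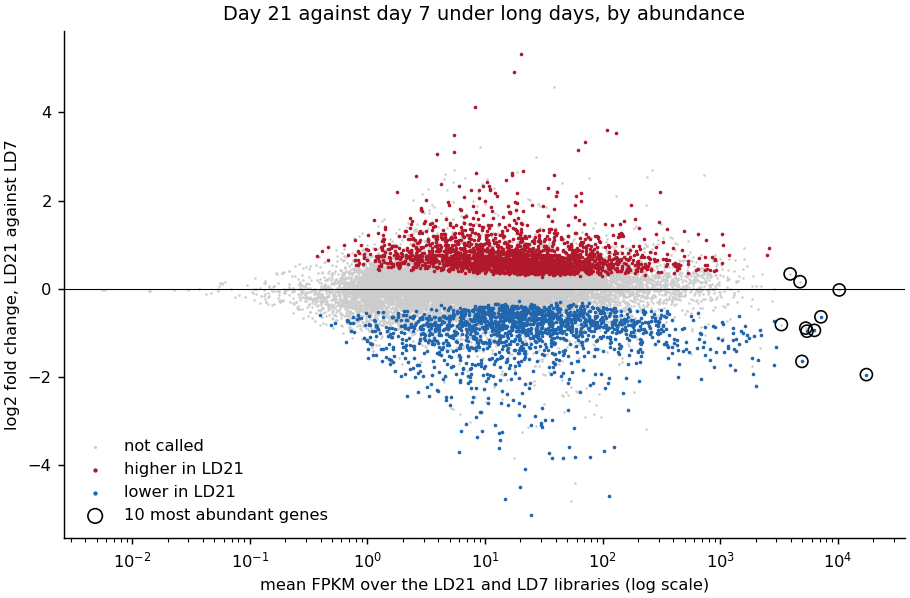
Log2 fold change of LD21 against LD7 for every tested gene (vertical axis) against its mean FPKM over the 6 libraries (horizontal axis, log scale). Called genes are coloured by direction, the 10 most abundant genes are circled, and most of the circles lie below 0.

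The balance of called falls and rises differed with the level of the gene, though most genes of every class were not called. Among 1728 genes averaging 100 FPKM or more over the 12 libraries, 18.2% were lower and 9.38% higher, against the 7.63% and 10.5% over all tested genes. Their share of the tested FPKM was 61.2% ± 1.04 in LD21 and 65.7% ± 0.45 in LD7 (SD, n = 3 each). Among the 6008 genes between 20 and 100 FPKM, 13.3% were higher and 10.3% lower, and their share was 27.6% ± 0.62 in LD21 and 24.6% ± 0.31 in LD7. The 7773 genes between 5 and 20 FPKM had 11.3% higher and 6.95% lower. After median-ratio scaling the class of 100 FPKM or more had 19.6% lower and 3.76% higher, while the class of 20 to 100 FPKM turned to 6.37% higher and 12.5% lower. After quantile normalization those classes had 9.20% higher and 18.0% lower, and 8.46% higher and 12.5% lower, so among the 3 scalings rises outnumbered falls at mid levels only on the deposited values.

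Loci also differed by the length of genome they span, introns included. Of 7779 loci spanning 5000 bp or more, 12.9% were higher and 5.31% lower, with a median log2 fold change 0.05 above that of all tested genes. The larger side of these shares turned after median-ratio scaling, with 6.21% higher and 7.19% lower, and after quantile normalization they were 8.37% and 6.89%. Of 3075 loci of 300 to 1000 bp, 6.57% were higher and 8.75% lower, with a median 0.12 below it. The median of the long loci stayed above and that of the short loci below the overall median after quantile normalization (0.04 above and 0.10 below) and after median-ratio scaling (0.05 above and 0.10 below). Whether span and level act separately was not tested.

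**Figure D2:**
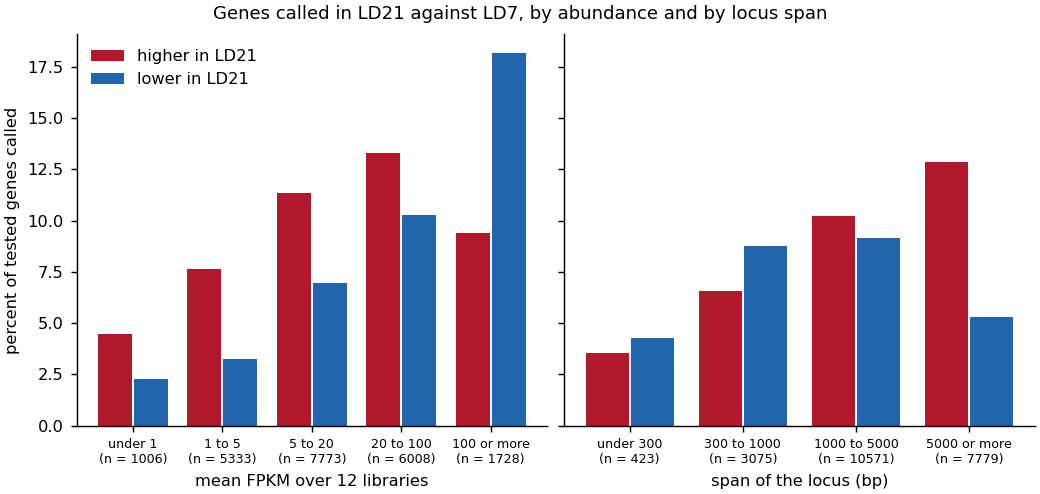
Percent of tested genes called higher or lower in LD21 against LD7 (bars) by mean FPKM over the 12 libraries (left) and by the genomic span of the locus in bp (right), with the number of genes under each class. Falls outnumber rises in the class of 100 FPKM or more, and rises outnumber falls among loci of 5000 bp or more on the deposited values shown, but not after median-ratio scaling (6.21% higher, 7.19% lower).

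Of the 10 genes with the highest mean over the LD21 and LD7 libraries, 5 were called lower, 5 were not called and 0 were called higher. Over all tested genes 7.63% were lower and 10.5% higher, and in the class of 100 FPKM or more 18.2% and 9.38%. Of the 5 falls, those of ranks 3, 4 and 5 were not called after quantile normalization. Together the 10 genes held 5.01% ± 0.55 of the FPKM in LD21 and 8.57% ± 0.27 in LD7 (SD, n = 3 each). Without the most abundant of them the others held 4.27% ± 0.37 in LD21 and 5.89% ± 0.25 in LD7. Those 10 genes held 6.90% ± 0.26 in SD21 and 9.28% ± 0.11 in SD7.

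The most abundant gene, on chromosome 17 at 3623302 to 3624351, had 5712, 6916 and 9383 FPKM in LD21 and 28377, 26092 and 28392 FPKM in LD7. Every LD21 library lay far below every LD7 library (log2 fold change -1.94 ± 0.19, SE, adjusted p = 0.00055). It alone made up 0.743% of the FPKM in LD21 and 2.68% in LD7. In the short-day tips it stood at 33385, 31822 and 27069 FPKM in SD21 and 32369, 27453 and 28919 FPKM in SD7, which overlap. The change under long days less that under short days was -2.00 ± 0.26 on the log2 scale (SE, adjusted p = 8.1e-05). After quantile normalization that difference was -0.44 with an adjusted p of 0.17.

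The gene of rank 7, on chromosome 10 at 5014594 to 5015426, had 2559, 1913 and 2786 FPKM in LD21 and 7871, 7494 and 7051 FPKM in LD7. The groups lay well apart, and the fall was 1.64 ± 0.24 on the log2 scale (SE, adjusted p = 0.0029). Its next neighbour at 5026577 to 5027393, singled out after its values were seen, had 1354, 1010 and 1640 FPKM in LD21 and 4558, 4378 and 4115 FPKM in LD7 (-1.73 ± 0.25, adjusted p = 0.0026). Both neighbours also fell under short days (-0.99 ± 0.24, adjusted p = 0.0041, and -1.08 ± 0.25, adjusted p = 0.0027). The p-values of the neighbour singled out are not independent of that choice. How reads shared by similar neighbours were counted is not given in the sources used here, so the levels of the pair may not be separate.

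A gene on chromosome 12 at 19514998 to 19515658 (rank 4) had 3853, 4091 and 5091 FPKM in LD21 and 8972, 7690 and 8213 FPKM in LD7. It fell under long days (-0.94 ± 0.18, SE, adjusted p = 0.0084) and rose under short days, with 8945, 14075 and 11700 FPKM in SD21 and 8258, 7189 and 8170 FPKM in SD7 (0.53 ± 0.18, adjusted p = 0.024). The difference of the changes was -1.47 ± 0.26 (adjusted p = 0.00056). Quantile normalization ended the call of the fall (-0.16, adjusted p = 0.46) and of the difference (-0.23, adjusted p = 0.36).

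A gene on chromosome 8 at 10702631 to 10703381 (rank 5) had 3564, 3088 and 4563 FPKM in LD21 and 7465, 7252 and 6808 FPKM in LD7, a fall of 0.96 ± 0.23 on the log2 scale (SE, adjusted p = 0.019). Under short days it fell much further, to 1133, 1143 and 610 FPKM in SD21, against 9078, 8864 and 9587 FPKM in SD7. The changes differed by 2.35 ± 0.33 (adjusted p = 0.00012). Its long-day call was lost without LD7 replicate 1 (adjusted p = 0.051), 2 (0.060) or 3 (0.056), without LD21 replicate 2 (0.080) and after quantile normalization (-0.30, adjusted p = 0.35).

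The gene on chromosome 18 at 19583510 to 19584489 (rank 3) had 5472, 5404 and 5990 FPKM in LD21 and 7971, 8779 and 9442 FPKM in LD7. The groups did not overlap, and the change was small (-0.63 ± 0.15, SE, adjusted p = 0.019). Leaving out LD7 replicate 2 (adjusted p = 0.067) or 3 (0.083) or LD21 replicate 2 (0.074) ended the call, and it was not called after quantile normalization (0.02, adjusted p = 0.97).

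The remaining 5 of the 10 were not called. The gene of rank 2, on chromosome 19 at 7399650 to 7400259, averaged 10260 ± 2520 FPKM in LD21 and 10288 ± 1395 FPKM in LD7 (SD, n = 3 each), a change of -0.02 ± 0.26 on the log2 scale (SE). The gene of rank 10, on chromosome 11 at 5370080 to 5370895, had 2987, 1988 and 2294 FPKM in LD21 and 4502, 3947 and 4125 FPKM in LD7. Its groups did not overlap, yet it missed the threshold (-0.81 ± 0.27, adjusted p = 0.058), and it was called after median-ratio scaling (adjusted p = 0.048), with only the groups compared (0.029), and without SD21 replicate 2 (0.045) or 3 (0.011). The gene of rank 6, on chromosome 8 at 14633088 to 14634214, changed by -0.89 ± 0.50 on the log2 scale (adjusted p = 0.23). It had 3671, 2669 and 4855 FPKM in LD21 and 9502, 5582 and 5702 FPKM in LD7, which do not overlap. The very short loci of rank 8, on chromosome 5 at 16999355 to 16999489, and of rank 9, on chromosome 8 at 2532970 to 2533228, had 0.16 ± 0.28 and 0.34 ± 0.56 (adjusted p = 0.72 and 0.70). At the locus of rank 9 a single LD21 library stood out, with 8032 FPKM against 3003 and 2809 FPKM in the other LD21 libraries.

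**Figure D3:**
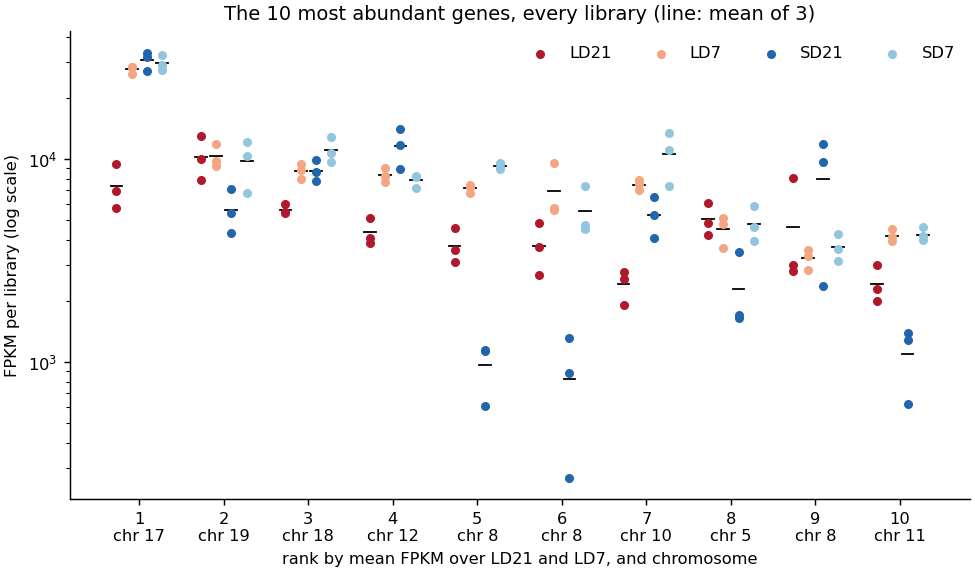
FPKM on a log scale in every library for the 10 genes with the highest mean over LD21 and LD7, in order of rank and with their chromosome. Points are libraries and lines are means of 3. At ranks 1, 3, 4, 5, 6, 7 and 10 every LD21 point lies below every LD7 point, though ranks 6 and 10 were not called.

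Another abundant gene, on chromosome 6 at 6106695 to 6109243, was singled out after its values were seen because its levels moved opposite ways with time. It had 655, 962 and 1655 FPKM in LD21 and 3186, 2872 and 3288 FPKM in LD7, and the groups lay well apart (-1.62 ± 0.26, SE, adjusted p = 0.0039). Under short days it had 9551, 10250 and 10284 FPKM in SD21 and 3783, 4097 and 4074 FPKM in SD7. The difference of the changes was -2.95 on the log2 scale. Both this difference and the long-day change with its p-value are descriptions, because the gene was chosen for that pattern.

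The largest rises and falls were taken among called genes whose libraries did not overlap, whose higher group averaged 5 FPKM or more, that were above 0 in all 6 libraries and that spanned 300 bp or more. Of these 2004 were higher and 1439 lower. The largest rise was that of VIT_00s0480g00070, on sequence not placed on a chromosome (Un, 30188034 to 30188752), with 201, 446 and 85.4 FPKM in LD21 and 9.95, 16.3 and 26.1 FPKM in LD7. All LD21 libraries were higher, by a spread of several fold among themselves (log2 fold change 3.52 ± 0.54, SE, adjusted p = 0.0041). Under short days it fell, with 2.98, 5.24 and 4.69 FPKM in SD21 and 10.1, 22.8 and 18.2 FPKM in SD7 (-1.72 ± 0.54, adjusted p = 0.018).

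VIT_10s0116g00560, on 10_random at 252241 to 253791, had 132, 226 and 34.2 FPKM in LD21 and 5.12, 10.3 and 14.0 FPKM in LD7 (3.33 ± 0.60, SE, adjusted p = 0.0072). Its LD21 libraries fell in the same order as those of VIT_00s0480g00070, with replicate 2 highest and replicate 3 lowest. In SD21 it had 1.799, 1.54 and 1.13 FPKM, against 6.15, 15.6 and 10.8 FPKM in SD7 (-2.18 ± 0.60, adjusted p = 0.0093). The long-day change exceeded the short-day change by 5.51 ± 0.85 for this gene and by 5.24 ± 0.77 for VIT_00s0480g00070 (SE, adjusted p = 0.00032 and 0.00022). Both genes were chosen for their long-day rise, which is part of that difference, so these p-values are not independent of the choice.

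The largest fall was that of VIT_16s0098g01060, on chromosome 16 at 21339159 to 21340093, with 45.3, 3.42 and 1.31 FPKM in LD21 and 282, 194 and 146 FPKM in LD7. The LD21 libraries spread widely, and the change of -4.69 ± 1.25 on the log2 scale (SE, adjusted p = 0.032) lost its call without any 1 of LD7 replicates 1 (adjusted p = 0.084), 2 (0.085) and 3 (0.084) or LD21 replicates 2 (0.108) and 3 (0.080). Its short-day libraries overlapped, with 37.5, 7.60 and 31.7 FPKM in SD21 and 99.8, 6.10 and 67.8 FPKM in SD7 (-0.73 ± 1.25, adjusted p = 0.64).

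VIT_04s0023g02900, on chromosome 4 at 19492694 to 19494685, had 0.735, 0.357 and 1.11 FPKM in LD21 and 7.24, 31.6 and 89.8 FPKM in LD7 (-4.09 ± 0.78, SE, adjusted p = 0.0095). Here the LD7 libraries differed widely among themselves, with replicate 1 lowest and replicate 3 highest. Under short days it had 17.9, 4.52 and 4.91 FPKM in SD21 and 19.7, 9.53 and 6.87 FPKM in SD7, which overlap (-0.49, adjusted p = 0.61). The difference of the changes was -3.60 ± 1.11 (adjusted p = 0.019). The long-day fall by which the gene was chosen is part of that difference, so its p-value is not independent of the choice.

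Single libraries carried an uneven part of the large changes. Of the 357 genes that rose at least 2-fold, LD21 replicate 3 was the lowest of the LD21 libraries in 253, replicate 1 in 70 and replicate 2 in 34. Without LD21 replicate 3, 536 genes rose at least 2-fold, and the count was 176 without LD21 replicate 2, and 233 and 180 without LD7 replicates 2 and 3. Of the 579 genes that fell at least 2-fold, LD7 replicate 3 was the highest of the LD7 libraries in 299, replicate 1 in 178 and replicate 2 in 102. Without LD7 replicate 3, 354 genes fell at least 2-fold. In the genes that rose, the median SD of log2(FPKM + 1) was 0.39 in LD21 and 0.28 in LD7.

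Genes with large changes lay next to each other. Of the genes that rose at least 2-fold, 69 (19.3%) had an immediate neighbour that did so too, where 3.14% of all tested genes had such a neighbour. Of those that fell, 116 (20.0%) had such a neighbour, against 5.09% of all tested genes. By chromosome, 1.70% (chromosome 14) to 3.87% (chromosome 8) of tested genes fell at least 2-fold and 0.721% (chromosome 4) to 2.37% (chromosome 12) rose. Runs of 4 or more such genes, with at most 1 other tested gene between them, numbered 4 for rises (17 genes) and 7 for falls (32 genes). The counts within runs are fixed by that rule, which the short-day libraries enter only through the filter on low values and the shared estimate of spread. The long-day change is also part of the difference of the changes, so calls of that difference in run genes are partly set by the rule. Over all tested genes 37.7% were called lower and 23.4% higher under short days, and 55.1% were called for the difference of the changes. Neighbours that are near-identical copies can share reads, and the summed levels were not tested.

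The stretch of chromosome 7 at 9125190 to 9257623 held 5 genes, of which 4 were in the rising run. Their summed level was 897, 942 and 278 FPKM in LD21 and 224, 103 and 105 FPKM in LD7, with no overlap. In the short-day tips the same genes summed to 1.69, 0.171 and 1.47 FPKM in SD21 and 155, 64.3 and 67.0 FPKM in SD7. All 4 were called lower under short days and all 4 for the difference of the changes. Under long days 0 of the 4 kept their calls without LD21 replicate 1 or 2 or without LD7 replicate 2 or 3.

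On the unplaced sequence at 30188034 to 30191076, all 4 neighbouring loci rose, among them VIT_00s0480g00070. They summed to 493, 879 and 166 FPKM in LD21 and 19.8, 37.96 and 64.2 FPKM in LD7, and all 4 kept their calls with each of the 6 libraries left out. The loci lie within about the length of a single gene and 2 of them touch, so they may not be separate transcripts. In the short-day tips they summed to 9.08, 10.4 and 7.80 FPKM in SD21 and 23.3, 65.6 and 45.9 FPKM in SD7, and 2 were called lower.

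On chromosome 5 at 20145286 to 20251637, 4 of 7 genes rose at least 2-fold, with 311, 327 and 223 FPKM in LD21 and 101, 89.4 and 69.1 FPKM in LD7 in sum. Most of it was the locus at 20213287 to 20214077, which averaged 225 FPKM in LD21 and 78.3 FPKM in LD7 (log2 fold change 1.53, adjusted p = 0.0083). In sum the 4 stood at 10.7, 14.5 and 15.5 FPKM in SD21 and 148, 91.7 and 78.9 FPKM in SD7. Of the 4, 2 were called lower there, at 20213287 to 20214077 (-3.80) and at 20251496 to 20251637 (-3.24). The others were not called, at 20145286 to 20148289 (-0.81, adjusted p = 0.10) and at 20191288 to 20194494 (0.27, adjusted p = 0.44). The very short locus at 20251496 to 20251637 was listed at 0 FPKM in every LD7 library. Without it fewer than 4 changed genes would remain in the stretch. With 1 LD library left out, 2 to 4 of the 4 kept their long-day calls, 2 of them without LD7 replicate 2 or LD21 replicate 2. The most abundant gene of the stretch, at 20174809 to 20176958, was not called (848 FPKM in LD21 and 905 FPKM in LD7).

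On chromosome 12 at 8782407 to 8845790, 5 of 7 genes rose under both photoperiods. They summed to 40.6, 31.4 and 16.1 FPKM in LD21 and 7.57, 10.0 and 10.5 FPKM in LD7, and to 29.1, 30.4 and 28.6 FPKM in SD21 and 12.0, 13.8 and 11.4 FPKM in SD7. Of the 5, all were called higher under short days and 1 was called for the difference of the changes. Without 1 of LD7 replicates 1 to 3 or LD21 replicates 1 and 2, 2 to 3 of the 5 kept their long-day calls.

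Among the falls, a run on unplaced sequence at 12846959 to 12992662 held 6 of 7 genes. They summed to 91.1, 163 and 254 FPKM in LD21 and 431, 376 and 427 FPKM in LD7, and no LD21 library reached an LD7 library. Under short days the same 6 genes rose, to 952, 942 and 1116 FPKM in SD21, against 440, 436 and 437 FPKM in SD7. All 6 were called higher under short days and for the difference of the changes, and 4 to 6 kept their long-day calls with each LD library left out. The remaining gene, at 12963780 to 12964267, was not called under long days (0.56, adjusted p = 0.28).

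The run on chromosome 1 at 7007864 to 7050240 held 4 of 5 genes, which summed to 7.98, 15.0 and 22.03 FPKM in LD21 and 38.4, 43.5 and 39.4 FPKM in LD7. All 4 kept their calls with each of the 6 LD libraries left out. Their short-day sums were 66.0, 71.1 and 78.1 FPKM in SD21 and 47.5, 55.4 and 57.0 FPKM in SD7. None of the 4 was called under short days by limma, and their median log2 fold change in SD21 against SD7 was 0.35. All 4 were called for the difference of the changes, which includes the long-day fall that chose them.

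On chromosome 3 at 8916222 to 9130668, 5 of 8 genes fell, with 106, 73.5 and 49.8 FPKM in LD21 and 175, 388 and 397 FPKM in LD7. The short-day sums went the other way, with 258, 485 and 411 FPKM in SD21 and 63.1, 210 and 227 FPKM in SD7, and 3 of the 5 were called higher there and 1 lower. From 1 to 5 of the 5 kept their long-day calls with 1 LD library left out. A locus just before this run, at 8883855 to 8884465, singled out after its values were seen, changed in the opposite directions. It had 210, 108 and 25.1 FPKM in LD21 and 17.5, 10.8 and 2.97 FPKM in LD7 (3.15 ± 0.93, SE, adjusted p = 0.044). In SD21 it stood at 0.389, 0.176 and 0 FPKM, against 16.01, 8.38 and 0.942 FPKM in SD7 (-2.52 ± 0.93, adjusted p = 0.037). The p-values of this locus are not independent of the choice. Its long-day call was lost without LD7 replicate 1 (adjusted p = 0.054), 2 (0.098) or 3 (0.148) or LD21 replicate 1 (0.118) or 2 (0.128). It was also lost without SD7 replicate 2 (0.055) or SD21 replicate 1 (0.055), 2 (0.055) or 3 (0.060). A pseudocount of 0.1 (0.073) and only the groups compared (0.058) ended it too, while a replicate block kept it (0.0055).

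On chromosome 4 at 7278046 to 7482615, 4 of 5 genes fell under long days, with summed 10.3, 23.7 and 27.1 FPKM in LD21 and 49.7, 50.5 and 39.6 FPKM in LD7. Under short days all 4 rose, with 129, 166 and 101 FPKM in SD21 and 18.8, 30.8 and 19.9 FPKM in SD7. The long-day calls were fragile: 0 of 4 held without LD7 replicate 1, 2 or 3, 1 without LD21 replicate 1 and 2 without LD21 replicate 2.

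The other 3 falling runs did not turn round under short days. On chromosome 3 at 862994 to 868156, 4 of 4 small loci fell, with 49.5, 43.1 and 64.6 FPKM in LD21 and 123, 97.5 and 144 FPKM in LD7. They fell under short days too, with 33.7, 39.0 and 22.7 FPKM in SD21 and 129, 168 and 128 FPKM in SD7, all 4 called. On chromosome 12 at 6613087 to 6684305, 4 of 6 genes fell, with 104, 66.6 and 78.8 FPKM in LD21 and 300, 290 and 330 FPKM in LD7. Most of that sum was the locus at 6668606 to 6684305, which averaged 77.97 FPKM in LD21 and 253 FPKM in LD7. Their short-day sums overlapped, with 328, 268 and 226 FPKM in SD21 and 285, 345 and 432 FPKM in SD7. Of these 4 genes, 1 was called lower there, at 6613087 to 6613564 (-3.20, adjusted p = 3.5e-06). The median log2 fold change of the 4 in SD21 against SD7 was -1.27. On chromosome 8 at 13066137 to 13189783, 5 of 6 genes fell, with 2.38, 0.133 and 1.32 FPKM in LD21 and 23.8, 55.3 and 149 FPKM in LD7. The LD7 libraries spread widely there, 3 of the 5 kept their calls without LD21 replicate 1, 2 or 3, and the short-day sums were 7.08, 0.0958 and 0.155 FPKM in SD21 and 27.0, 23.8 and 11.4 FPKM in SD7.

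**Figure D4:**
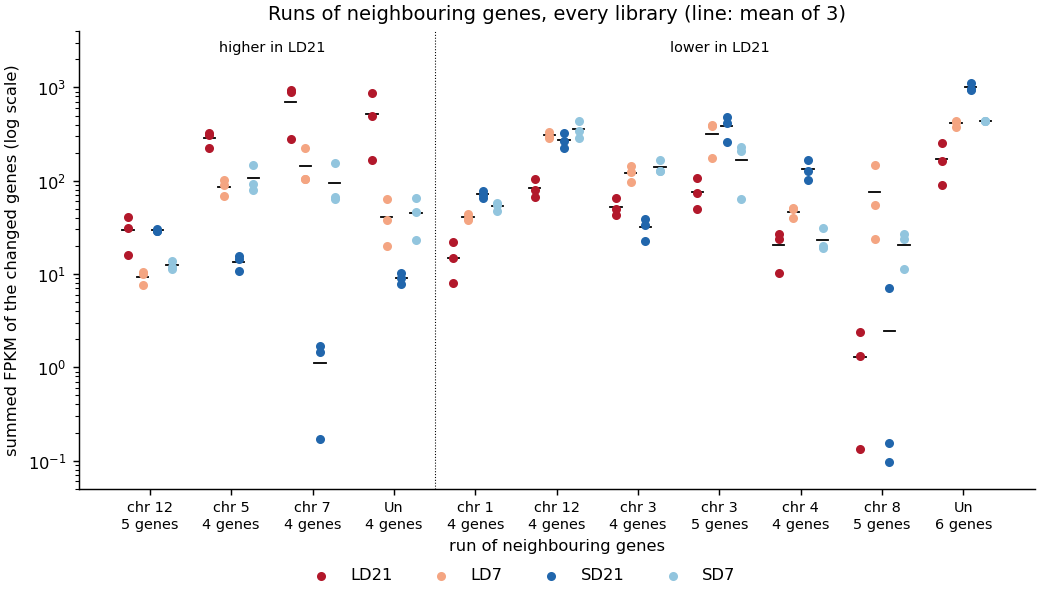
Summed FPKM (log scale) of the changed genes of each run of neighbours in every library, with the chromosome and number of genes under each run. Points are libraries and lines are means of 3. The runs left of the dotted line were higher in LD21 than in LD7, and those to its right were lower. The SD21 and SD7 points stand in the opposite order on chromosomes 1, 4, 5 and 7. They do so too in both runs on unplaced sequence and in the run of 5 genes on chromosome 3.

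The levels in the short-day libraries were not part of the contrast that chose the long-day genes, although these libraries entered the filter on low values and the shared estimate of spread. In SD21 against SD7, 61.1% of all tested genes were called, 23.4% higher and 37.7% lower. Of the 357 genes that rose at least 2-fold under long days, 203 (56.9%) were called lower and 53 (14.8%) higher under short days. The median over these genes of the mean level was 17.2 FPKM in LD21 and 5.89 FPKM in LD7, and 1.99 FPKM in SD21 and 5.76 FPKM in SD7. The medians of LD7 and SD7 were close, and those of day 21 lay on either side of them.

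Of the 579 genes that fell at least 2-fold under long days, 173 (29.9%) were called higher and 151 (26.1%) lower under short days. Their median level was 7.67 FPKM in LD21 and 26.2 FPKM in LD7, and 20.3 FPKM in SD21 and 21.3 FPKM in SD7. Among all 2296 genes that rose, 52.4% were called lower under short days, and among all 1667 that fell 39.5% were called higher. After quantile normalization these shares were 46.9% and 43.3%, where 30.1% and 30.6% of all tested genes were called lower and higher. After median-ratio scaling they were 49.5% and 45.3%, where 31.2% and 29.9% were.

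Genes that changed the same way under both photoperiods were the smaller part. Those higher in both numbered 370, which is 16.1% of the long-day rises and 7.24% of the short-day rises. Those lower in both numbered 426, which is 25.6% of the long-day falls and 5.17% of the short-day falls. Over all tested genes 23.4% were called higher and 37.7% lower under short days, and 10.5% and 7.63% under long days. Each overlap share lies below the matching share over all tested genes. The change with time differed between the photoperiods in 12045 genes (55.1% of those tested), in 7753 (35.5%) with the higher and in 4292 (19.6%) with the lower change under long days, a split that median-ratio scaling put at 5845 and 5730 and quantile normalization at 5820 and 5610.

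**Figure D5:**
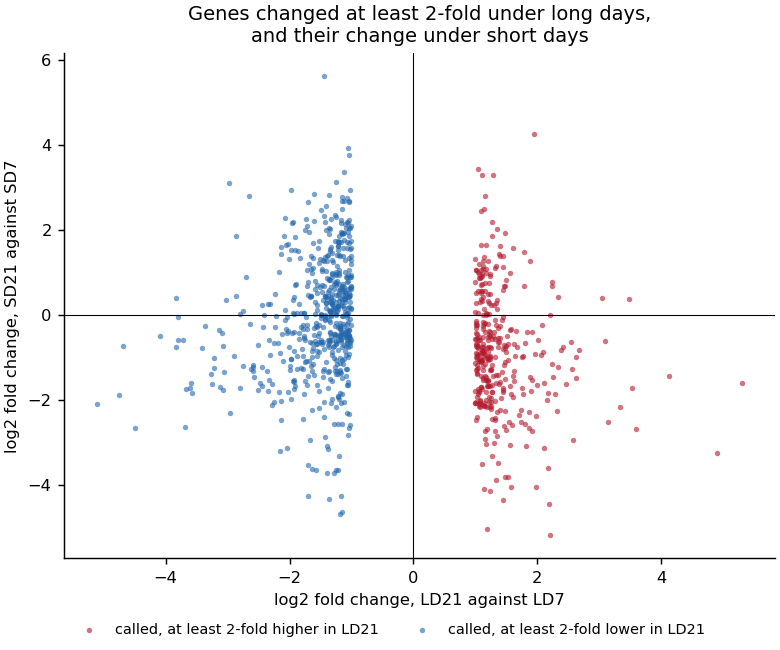
Log2 fold change of SD21 against SD7 (vertical axis) against that of LD21 against LD7 (horizontal axis) for the 357 genes that rose and the 579 that fell at least 2-fold under long days, each point being a gene. Most of the points at the right lie below 0, and those at the left lie on either side of it.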

How the data were processed

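The deposited values are FPKM per gene, one library to a file, per the file headers. The submitters' processing notes name Cufflinks 2.2.1, TopHat2 2.0.13, Bowtie2 2.2.4, cutadapt 1.8.1 and FastQC 0.11.3. Reads were 43 bp long, per the labels' protocols. Parameters, strand, build and annotation: not given in the sources used here. Coordinates follow the files. Because FPKM is relative to all mapped fragments, a change in a few abundant genes shifts every other value of a library. For SD21 replicate 3 the header reads replicate 2, and since the contents differ it was kept as replicate 3.

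Of 29970 identifiers, 0 were found in the reference table (EGFV_Vit.rip_1.0), so planned gene lists and tissue markers were not used. The 21848 genes with 1 FPKM or more in 3 or more of the 12 libraries entered limma 3.58.1 (R 4.3.3, eBayes with trend and robust) as log2(FPKM + 1), where changes of low genes are understated. All 4 groups shared one fit, tested on simulated data, and the contrasts were LD21 against LD7, SD21 against SD7 and their difference, called at a Benjamini-Hochberg adjusted p under 0.05. Plots were drawn with matplotlib 3.10.9 in Python 3.11.15. The 2 largest rises and the 2 largest falls are named by identifier, under the limits stated with them, and other loci come from the 10 most abundant genes and the runs. The comparison, rules and lists were chosen with earlier results of these data known. A 0 is only a listed 0: 13 genes exceeded 20 FPKM in 10 or more libraries yet stood at 0 in another. Vines were pooled 5 to a replicate, and p-values measure the spread between these libraries. FPKM allow no counting interval. Alternatives were quantile and median-ratio scaling, no trend, no filter or one at 5 FPKM, a pseudocount of 0.1, only the groups compared, a replicate block, loci of at least 300 bp and each library left out.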

Additional observations from a re-analysis of the deposited data

Results flagged for a closer look

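The change with time differed between the photoperiods by a test of the difference itself (limma, adjusted p under 0.05) for 12045 genes, 55.1% of those tested. Among genes called by it, the log2 difference (the long-day change less the short-day change) was 5.24 for VIT_00s0480g00070, 5.51 for VIT_10s0116g00560 and -3.60 for VIT_04s0023g02900. It was -2.00 for the locus on chromosome 17, -1.47 for that on chromosome 12, 2.35 and 2.10 for those on chromosome 8 at 10702631 to 10703381 and at 14633088 to 14634214, 1.31 for that on chromosome 5 and 1.22 for that on chromosome 11, all among the 10 most abundant. Of those 10 genes 6 were called for the difference, near the 55.1% over all tested genes. The locus on chromosome 3 at 8883855 to 8884465 had 5.67 and that on chromosome 6 had -2.95. Both loci were picked with their values in view, so these differences are descriptions and not results of a test. VIT_00s0480g00070, VIT_10s0116g00560 and VIT_04s0023g02900 were chosen by their long-day change, which enters the difference. The differences of these named genes are therefore descriptions too. The call at chromosome 8, 14633088 to 14634214, was lost without LD7 replicate 2 or 3, SD7 replicate 1 or LD21 replicate 3 and after median-ratio scaling (adjusted p = 0.055 to 0.064). That on chromosome 11 was lost after median-ratio scaling (adjusted p = 0.074), and those on chromosome 17 (-0.44, adjusted p = 0.17) and chromosome 12 (-0.23, adjusted p = 0.36) after quantile normalization.

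In 7 runs of neighbouring genes every LD21 sum lay on one side of every LD7 sum and the SD21 sums lay on the opposite side of the SD7 sums. The difference of the summed levels was not tested. Their median log2 fold changes in SD21 against SD7 were -2.03 on chromosome 5, -3.37 on chromosome 7 and -1.49 on the unplaced sequence at 30188034 to 30191076, all higher in LD21. Among the runs lower in LD21 they were 0.35 on chromosome 1, 1.38 on chromosome 3 at 8916222 to 9130668, 2.12 on chromosome 4 and 1.24 on the unplaced sequence at 12846959 to 12992662. On chromosome 5 most of the long-day sum was a single locus, and 2 of the 4 genes were called lower under short days.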

How the results depend on the processing

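With 1 library left out, of all 12 in turn, the count of genes called in LD21 against LD7 ran from 1361 to 4369, of genes higher from 570 to 2615 and of genes lower from 768 to 1754. At least 2-fold rises ran from 176 to 536 and at least 2-fold falls from 354 to 720. In none of the alternatives was a gene called in LD21 against LD7 called in the other direction. Median-ratio scaling gave 1185 genes higher, all of them among the 2296, and 1660 of the 1667 falls were kept. A filter at 5 FPKM left 4 falling runs. Deviations from the group mean in same-numbered libraries of LD21 and LD7 correlated at 0.01, -0.01 and 0.10. Between other groups, same-numbered correlations ran from -0.13 (LD7 and SD21) to 0.20 (LD21 and SD21). Differently numbered libraries gave -0.17 to 0.15. These values do not settle whether the replicate numbers pair the libraries. The replicate block gave 1990 genes higher and 1486 lower.

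For the single loci, 321 recomputed long-day changes kept their direction and side of the threshold. Another 25 lost the call without changing sign, 4 gained it and 5 changed sign. Among those 5, the chromosome 18 locus also lost its call, after quantile normalization (adjusted p = 0.97). With 1 library left out, the uncalled change of the chromosome 19 locus ran from -0.20 to 0.15, above 0 without LD7 replicate 2 (0.08) or LD21 replicate 2, and that of the chromosome 8 locus of rank 9 from -0.15 (without LD21 replicate 2) to 0.61. Quantile normalization gives equal ranks equal values, so the few most abundant genes take the mean of libraries that differ there. It turned the long-day change of the chromosome 19 locus to 1.17 and of the chromosome 18 locus to 0.019, and the log2 difference between photoperiods to 1.00 at the chromosome 18 locus, 0.24 at the chromosome 10 locus of rank 7 and 0.88 at the chromosome 8 locus of rank 9. Depth sets no interval here, since FPKM give no counts.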
